A study of Mus musculus with 298 samples.

Results

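10 of the 22800 gene symbols counted in single neurons of the SCN (suprachiasmatic nucleus, the circadian clock of the mouse hypothalamus) are described here: Creb1, Crem, Crtc1, Crtc2 and Sik1 of the CREB pathway, and the calcium and calmodulin dependent kinases Camk2a, Camk2b, Camk2d, Camk2g and Camk4. The 10 genes were taken by name, and all 10 have a row in the count table. Each sample is the cytoplasm of 1 neuron, drawn into a patch pipette after its firing was recorded in a slice. The labels call the cells SCN interneurons. Mice lived in equal spans of light and dark. Cells labelled day came from slices cut near ZT0, lights on, and cells labelled night from slices cut near ZT12, lights off. Among day cells, 51 were active and cFOS+, 27 active and cFOS-, 17 silent and cFOS+, and 32 silent and cFOS-. Among night cells the same groups held 41, 46, 35 and 35 cells. A further 14 cells were labelled depolarized, of which 2 were day cFOS+, 7 day cFOS-, 3 night cFOS+ and 2 night cFOS-. The sources used here do not give the genotype, strain, sex or age of the mice, or how the cFOS label was assigned. The series title is about a phosphate transporter in neurons that make vasoactive intestinal peptide, and states no question about CREB.

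CREB is a transcription factor that binds a short DNA element, the CRE, and drives transcription once calcium or cyclic AMP signals lead to its phosphorylation. CRTC coactivators enter the nucleus when calcineurin removes their phosphates, and join CREB on its targets. Salt-inducible kinases such as SIK1 phosphorylate CRTCs and keep them out of the nucleus, and Sik1 is itself a CREB target. CaMKII, built from alpha, beta, delta and gamma subunits, and CaMKIV read calcium bound to calmodulin, and CaMKIV phosphorylates CREB in the nucleus. In the SCN, light at night acts through calcium and CREB to induce Per1, and SIK1 limits that response.

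The CRE is shown first, since it is the DNA element through which the pathway acts. Promoters run from 250 bases before to 50 bases after the gene start in the RefSeq table of build GRCm38.p6. Promoters of 16 of the 20 genes that were listed as CREB-responsive were used. The others had none in the table or fell under an exclusion that is given with the processing. The shares of all promoters were taken without that exclusion. Of those 16 genes, 4 had a promoter with the full CRE, TGACGTCA, which reads the same on both strands. The capitals mark it in these windows of 30 bases, written 5′ to 3′ on the strand of the gene.
Btg2: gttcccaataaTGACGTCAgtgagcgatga
Dio2: ctctttctcaaTGACGTCAagatctttagc
Sst: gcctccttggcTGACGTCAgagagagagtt
Dusp1: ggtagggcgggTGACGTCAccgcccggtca
The first base of the element lay at -166 from the gene start in Btg2, at -95 in Dio2, at -48 in Sst and at -143 in Dusp1. The promoters are at chr1:134079106-134079405 (Btg2), chr12:90738989-90739288 (Dio2), chr16:23890795-23891094 (Sst) and chr17:26508423-26508722 (Dusp1), all on the minus strand. Some genes have several promoters in the table, and the 16 genes had 24. The full CRE was present in 4 of these 24 promoters, against 1.79% of all 32851 promoters of the table. Its short core TGACG, which the full CRE contains, was found on either strand in 16 of the 24, against 20.8% of all promoters. The genes were listed beforehand as CREB-responsive, so shares above those of all promoters are no independent result. They were not tested. All promoters of Pdyn and 6 of the 7 of Bdnf lacked it. Sst, Dusp1 and Btg2 code for a peptide, a phosphatase and a growth regulator, and Dio2 for a thyroid hormone deiodinase.

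Of the 10 genes, Creb1, Crtc1, Camk2b and Camk2d had a promoter among those used, after the same exclusion. None of these 4 held TGACGTCA, TGACG or the E-box CACGTG on either strand, and the E-box was found in 7.15% of all promoters. The Creb1 promoter is shown because Creb1 is the gene whose level differed most between the groups. It lies at chr1:64532554-64532853 on the plus strand, and no capitals are used because none of the searched letters occur in it.
Creb1: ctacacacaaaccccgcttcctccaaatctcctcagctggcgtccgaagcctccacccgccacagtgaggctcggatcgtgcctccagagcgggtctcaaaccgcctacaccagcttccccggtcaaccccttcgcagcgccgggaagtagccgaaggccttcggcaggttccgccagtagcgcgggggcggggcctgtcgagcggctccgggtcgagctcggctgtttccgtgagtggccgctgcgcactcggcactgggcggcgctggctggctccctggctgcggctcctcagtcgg
A match, or the lack of one in such a window, describes these letters only.

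The cells had 3187057 to 25535298 counted reads (median 6320667). Detected genes ran from 2341 to 8420 per cell, with a median of 4474. Levels are CPM, counts scaled to a fixed total per cell or group (per 1000000). The GABA neuron genes Gad1, Gad2 and Slc32a1 had reads in 92.3%, 76.1% and 46.5% of the cells, and the synaptic gene Snap25 in 99.7%, while the glutamate transporter gene Slc17a6 had reads in 13.5%. Fos goes against the cFOS label, at 2005 CPM in cFOS+ cells against 2676 CPM in cFOS- cells, and was lower in the cFOS+ cells of all 4 combinations of time and firing. Marker RNA of microglia, summed over 11 genes, ranged from 0 to 35396 CPM in day cells and from 0 to 34761 CPM in night cells, and none of its markers was at 0. The night silent cells S70 and S71, which carry opposite cFOS labels, correlated at 0.9995 across genes, against 0.696 for the next closest of 44253 pairs. They were averaged and counted as 1 cell with no cFOS label, which left 297 cells. No label gives the animal or slice of a cell, so each group counts as 1 sample, no difference was tested, and intervals cover the counting error of reads, or of a draw of cells, and nothing else.

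Per kilobase, Camk2b and Camk2d were the most abundant of the 10 genes and Camk4 the least. Pooled over all cells and divided by the longest coding transcript, Camk2b reached 82.5 CPM per kilobase. Camk2d followed at 22.7, Crem at 18.6, Crtc2 and Camk2a at 13.9 and 13.8, and Sik1 at 11.5 CPM per kilobase. Crtc1 lay at 8.25, Camk2g at 5.21, Creb1 at 3.28 and Camk4 at 2.71 CPM per kilobase. The order of presence differed. A read of Camk2b was found in 85.2% of the cells, of Camk2a in 72.7%, of Sik1 in 60.3%, of Camk2d in 57.6% and of Crtc1 in 49.2%. Crtc2 and Camk2g each had a read in 38.7%, Crem in 31.3%, Creb1 in 27.3% and Camk4 in 16.5% of the cells. The median cell had 207 CPM of Camk2b, whose pooled level was 332 CPM. It had 6.20 CPM of Camk2a, 1.02 CPM of Sik1, 0.55 CPM of Camk2d and none of the other 6.

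The reads of most of these genes came from few cells. For Camk2b, 48 cells held 50% of the CPM summed over cells. For Sik1 it took 24 cells, for Camk2a 23, for Camk2d 22, for Crtc1 18, and for Crem and Crtc2 15 each. For Camk2g 11 cells sufficed, for Creb1 8 and for Camk4 5. The 5 highest cells held 36.9% of the summed CPM of Creb1 and 52.3% of that of Camk4, against 7.47% of that of Camk2b. A pooled level of Creb1 or Camk4 is therefore the level of a handful of cells. A cell had reads of 5 of the 10 genes in the median, and the most common number was 6, in 67 cells. In 2 cells none of the 10 was read, and in 1 cell all 10 were.

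**Figure D1:**
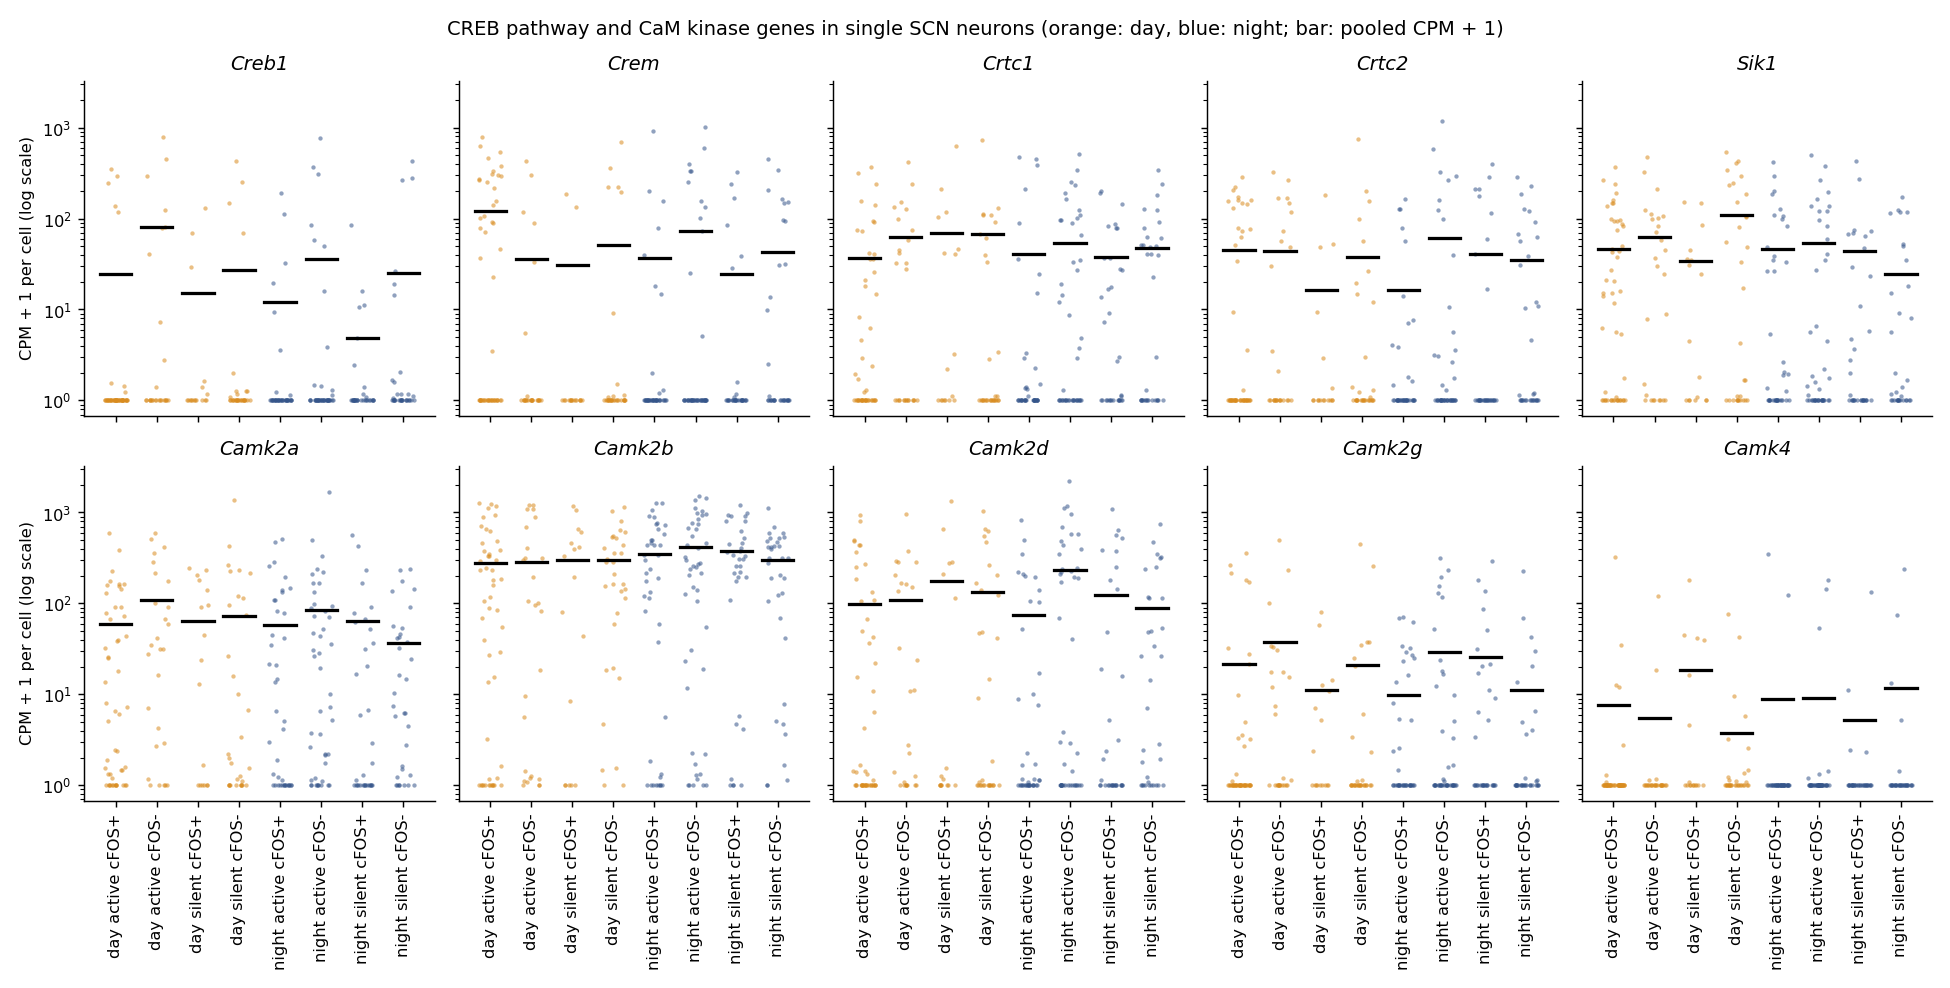
CPM + 1 of each of the 10 genes in single cells (points, log axis) of the 8 groups of active and silent cells, day in orange and night in blue, with the pooled CPM + 1 of the group as a black bar. Every group has cells at 0, drawn at 1, for every gene, and the day active cFOS+ bar of Crem (120 CPM) and the day silent cFOS- bar of Sik1 (110 CPM) stand above those of the other groups.

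Creb1 encodes CREB itself. It was lower in cFOS+ than in cFOS- cells, with a pooled level of 14.1 CPM (95% Poisson interval 13.8 to 14.3) in 143 cFOS+ cells against 39.4 CPM (39.0 to 39.8) in 139 cFOS- cells. Lowest, median and highest cell were 0, 0 and 349.3 CPM in day active cFOS+ cells and 0, 0 and 783 CPM in day active cFOS- cells. They were 0, 0 and 83.1 CPM in night silent cFOS+ cells and 0, 0 and 424.4 CPM in night silent cFOS- cells. Lowest cells and medians were 0 in all these groups, so the ranges overlapped. Among cells with a read, the median was 9.57 CPM in cFOS+ cells and 14.0 CPM in cFOS- cells. By group this median was higher in cFOS+ cells among day active, day silent (14.4 against 0.64 CPM) and night silent cells (3.87 against 0.86 CPM). It was lower among night active cells (13.5 against 31.9 CPM). These group medians rest on 6 to 14 cells with a read each, and those of 0.64 and 0.86 CPM stand for a few reads per cell. They do not settle whether the lower pooled level holds in the typical cFOS+ cell with a read.

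The log2 ratio of (CPM + 1), cFOS+ over cFOS-, was -1.42 for Creb1, a level 2.68-fold lower in cFOS+ cells. It was negative in each of the 4 strata, which are the combinations of time and firing: -1.72 in day active, -0.83 in day silent, -1.58 in night active and -2.40 in night silent cells. It was -1.16 without the highest cell of each group, and -1.02 without cell S190 of the day active cFOS- group (783 CPM). S190 is the cell whose loss brings it nearest 0. After every cell was thinned to 4210000 reads, which left out 30 shallower cells, 19.7% of cFOS+ cells (exact interval 13.2 to 27.7%) against 29.4% of cFOS- cells (21.6 to 38.1%) had a read of Creb1. Unthinned, the shares were 21.7% and 33.1%. The intervals of the shares overlap. Microglia marker RNA moved the same way, at a summed 772 CPM in cFOS+ cells against 1123 CPM in cFOS- cells, with single cells from 0 to 35396 CPM and from 0 to 34761 CPM, and at least 100 CPM in 31.5% and 43.9% of the cells. Of its 11 markers, 1 was higher in cFOS+ cells. Without the cells holding at least 100 CPM of these markers the Creb1 ratio was -2.21.

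Creb1 was also higher in day than in night cells, at 35.4 CPM (35.04 to 35.84) in 127 day cells against 22.6 CPM (22.3 to 22.8) in 156 night cells, and in active than in silent cells, at 33.2 CPM in 165 active cells against 21.6 CPM in 118 silent cells. The log2 ratios were 0.63 and 0.60, positive in all 4 strata of each comparison, from 0.09 to 1.66 for day over night and from 0.50 to 1.58 for active over silent. Both rested on S190: without it they were 0.12 and 0.19. With S70 and S71 as 2 cells, both also came under 1.5-fold, at 0.45 and 0.36. The cell numbers in the titles mattered as well. Day over night was 1.39 among the lower numbers and -0.47 among the higher ones. The thinned shares ran the other way, at 21.9% of day cells against 27.1% of night cells. By firing they were 22.1% of active cells against 28.6% of silent cells. Unthinned, the shares were 26.8% against 28.2% and 23.03% against 33.9%. At 5 reads or more the unthinned shares were nearly level, at 16.5% of day against 17.9% of night cells. For active and silent cells they were 17.0% and 17.8%. Among cells with a read, the median was 44.6 CPM in active cells but 1.25 CPM in silent cells. No order of Creb1 by time or firing is read from these shares.

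Crem encodes CREM, a relative of CREB whose gene also gives rise to the short repressor ICER. It was higher in active cells, at 70.6 CPM in active cells against 36.7 CPM in silent cells, a log2 ratio of 0.93 that stayed at 0.79 without cell S157 (1005 CPM, night active cFOS-). The ratio was 1.98 in day cFOS+, 0.56 in night cFOS+ and 0.77 in night cFOS- cells, but -0.50 in day cFOS- cells. After thinning, 34.2% of active cells (26.7 to 42.4%) against 26.7% of silent cells (18.5 to 36.2%) had a read, and unthinned 32.7% against 29.7%.

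The high group for Crem was the day active cFOS+ one. Its pooled level was 120 CPM (119 to 121), with cells from 0 through a median of 0 to 795 CPM, and 49.0% of its cells had a read. The other 7 groups of active and silent cells had pooled levels of 23.6 to 72.02 CPM, and 11.8% to 41.2% of their cells had a read. In this group Crem went against the cFOS difference seen elsewhere. Its log2 ratio, cFOS+ over cFOS-, was 1.75 in day active cells, against -0.74 in day silent, -1.01 in night active and -0.80 in night silent cells. The difference between strata was not tested. Pooled over strata, Crem had 61.1 CPM in cFOS+ cells and 52.2 CPM in cFOS- cells.

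Between times, Crem reached 70.9 CPM (70.3 to 71.4) in day cells against 44.6 CPM (44.2 to 45.0) in night cells, a log2 ratio of 0.66. The ratio was positive in 3 of 4 strata, at 1.74 in active cFOS+ cells and at -1.01 in active cFOS- cells. It was 0.51, under 1.5-fold, without cell S490 (795 CPM, day active cFOS+), and 0.51 without the cells holding microglia markers. All 11 microglia markers were higher by day, with a summed 1446 CPM in day cells against 532.2 CPM in night cells, and at least 100 CPM in 43.3% of day and 32.7% of night cells. Of 12 astrocyte markers 10 were higher by day, at a summed 776.6 CPM in day cells against 367 CPM in night cells. The part of these markers in the day to night differences of Creb1, Crem and Sik1 was not tested. Without the cells that held microglia markers, the log2 ratios were 0.86 for Creb1 and 0.53 for Sik1.

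Crtc1 and Crtc2, the coactivators, did not pass 1.5-fold in any of the 3 comparisons. Crtc1 had 53.9 CPM in day cells against 43.9 CPM in night cells, 45.9 CPM in active cells against 51.9 CPM in silent cells, and 41.4 CPM in cFOS+ cells against 56.0 CPM in cFOS- cells. With the highest cells left out, the log2 ratio of day over night was 0.04 and that of active over silent was 0.12, against -0.17 with them. Crtc2 had 37.8 CPM in day cells against 37.6 CPM in night cells, 41.0 CPM in active cells against 33.1 CPM in silent cells, and 30.9 CPM in cFOS+ cells against 44.9 CPM in cFOS- cells.

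The order of the groups differed between the coactivators. Crtc1 was highest in day silent cFOS+ cells, at 68.6 CPM, and lowest in day active cFOS+ cells, at 35.8 CPM. Crtc2 was highest in night active cFOS- cells, at 60.5 CPM, where cell S457 reached 1172 CPM, and at 15.4 CPM and 15.6 CPM in day silent cFOS+ and night active cFOS+ cells. The cFOS ratio of Crtc2 was -1.89 in night active and -1.21 in day silent cells, against 0.04 in day active and 0.24 in night silent cells. In 69 cells (23.2%) both coactivators had a read, and 64.6% of the cells had a read of at least 1 of them.

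Sik1 encodes the kinase that holds CRTCs back. It was higher by day, at 63.7 CPM in day cells against 41.8 CPM in night cells, a log2 ratio of 0.60. The ratio was 2.18 among silent cFOS- cells, 0.20 among active cFOS- cells, 0.02 among active cFOS+ cells and -0.36 among silent cFOS+ cells. The day silent cFOS- group stood out, at 110 CPM (108 to 111) with cells from 0 through a median of 9.79 to 540 CPM, against 23.5 CPM (22.8 to 24.1) and cells from 0 through a median of 0.208 to 171.9 CPM in the night silent cFOS- group. The ranges overlap. The ratio was 0.45, under 1.5-fold, without cell S570 (540 CPM, day silent cFOS-).

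Presence of Sik1 went the same way. After thinning, 65.8% of day cells (56.3 to 74.4%) against 52.1% of night cells (43.5 to 60.7%) had a read, with overlapping intervals, and unthinned 66.9% against 53.2%. The difference of mean log2 (CPM + 1) over cells, which gives each cell equal weight, was 1.18. Sik1 had 50.3 CPM in active cells against 53.5 CPM in silent cells, and 43.3 CPM in cFOS+ cells against 60.6 CPM in cFOS- cells, with a ratio of -0.48.

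**Figure D2:**
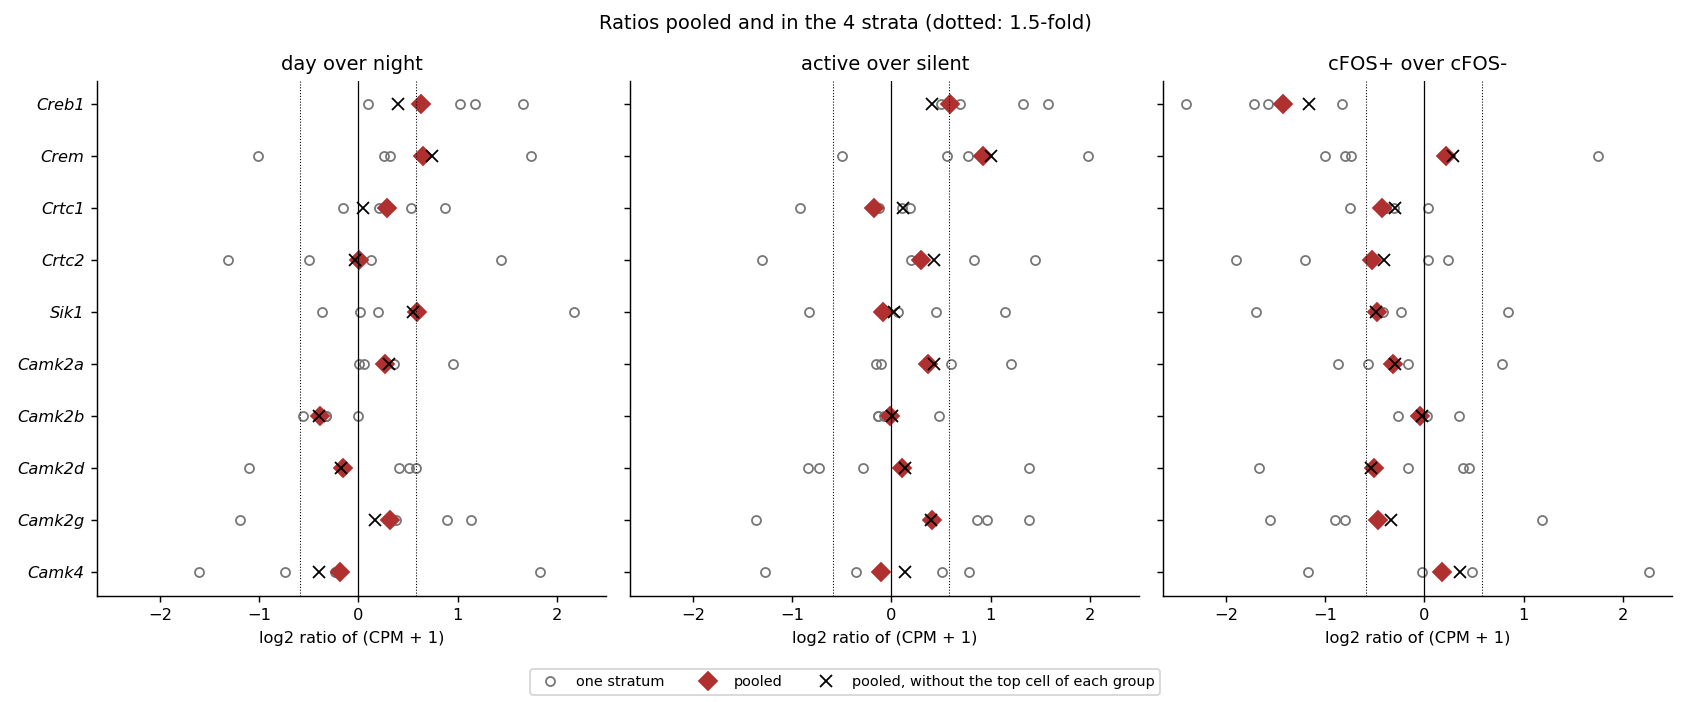
Log2 ratio of (CPM + 1) for each gene (rows) in the 3 comparisons (panels), pooled (red diamonds), in each of the 4 strata (open circles) and pooled without the highest cell of each group (crosses), with dotted lines at 1.5-fold. Creb1 lies at -1.42 for cFOS+ over cFOS- with all 4 strata below 0, while for most other genes the strata fall on both sides of 0.

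Camk2b, the beta subunit of CaMKII, which binds actin, was lower by day, at 286.7 CPM in day cells against 375.4 CPM in night cells. Cells ran from 0 through a median of 104 to 1258 CPM in day active cFOS+ cells and from 0 through a median of 213 to 1281 CPM in night active cFOS+ cells. The log2 ratio was -0.39, under 1.5-fold, and was at or below 0 in all 4 strata, from -0.56 in active cFOS- cells to less than 0.01 from 0 in silent cFOS- cells. All groups overlapped widely. Camk2b had 333.9 CPM in active cells against 337.98 CPM in silent cells, and 324.1 CPM in cFOS+ cells against 333.5 CPM in cFOS- cells. A read was found after thinning in 79.8% of day cells (71.3 to 86.8%) against 86.4% of night cells (79.6 to 91.6%), and unthinned in 82.7% against 87.8%.

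Camk2a, the alpha subunit that is best known from forebrain excitatory synapses, had 73.7 CPM in day cells against 61.1 CPM in night cells, with positive ratios of 0.01 to 0.96 in all 4 strata. It had 73.9 CPM in active cells against 56.8 CPM in silent cells, and 59.8 CPM in cFOS+ cells against 74.4 CPM in cFOS- cells. Its highest group was day active cFOS-, at 109 CPM, and its lowest night silent cFOS-, at 36.1 CPM. None of these ratios passed 1.5-fold.

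Camk2d, the delta subunit, had 120 CPM in day cells against 133 CPM in night cells, 131 CPM in active cells against 121.6 CPM in silent cells, and 105 CPM in cFOS+ cells against 150 CPM in cFOS- cells. The last difference, a log2 ratio of -0.51, came from the night active cells, where the ratio was -1.67. It was -0.16 in day active, 0.39 in day silent and 0.46 in night silent cells. Night active cFOS- cells had 234.1 CPM, with cells from 0 through a median of 1.96 to 2210 CPM, and night active cFOS+ cells had 72.9 CPM, with cells from 0 through a median of 0.157 to 832 CPM. Camk2g, the gamma subunit, was low throughout, at 22.6 CPM in day cells against 18.0 CPM in night cells, 22.5 CPM in active cells against 16.7 CPM in silent cells, and 16.8 CPM in cFOS+ cells against 23.6 CPM in cFOS- cells.

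Within a cell, CaMKII reads were usually dominated by 1 gene. A read of at least 1 of the 4 genes was found in 95.6% of 297 cells, and reads of all 4 in 59 cells, of 3 in 105, of 2 in 84 and of 1 in 36. Per kilobase, Camk2b made up 66.4% of the pooled CaMKII level, Camk2d 18.3%, Camk2a 11.1% and Camk2g 4.19%. Camk2b was the highest of the 4 in 65.1% of these cells (59.3 to 70.7%), Camk2d in 45 cells, Camk2a in 40 and Camk2g in 14. The leading gene made up a median of 85.3% of a cell's CaMKII level, and at least 90% in 113 cells. These are shares of reads, and in the 36 cells with reads of 1 gene that gene holds the whole level. How far transcripts missed in a cell shape these shares was not tested.

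The leading gene was not split alike between times. Camk2a led in 21.0% of day cells (14.1 to 29.4%) against 8.55% of night cells (4.63 to 14.2%), and Camk2b in 58.8% of day cells (49.4 to 67.8%) against 70.4% of night cells (62.5 to 77.5%). These intervals just meet for Camk2a and overlap for Camk2b. Camk2a led in 17.9% of active cells against 8.70% of silent cells, and in 11.8% of cFOS+ cells against 16.4% of cFOS- cells. The subunits are paralogs, and the sources used here do not say how reads shared between them were counted.

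**Figure D3:**
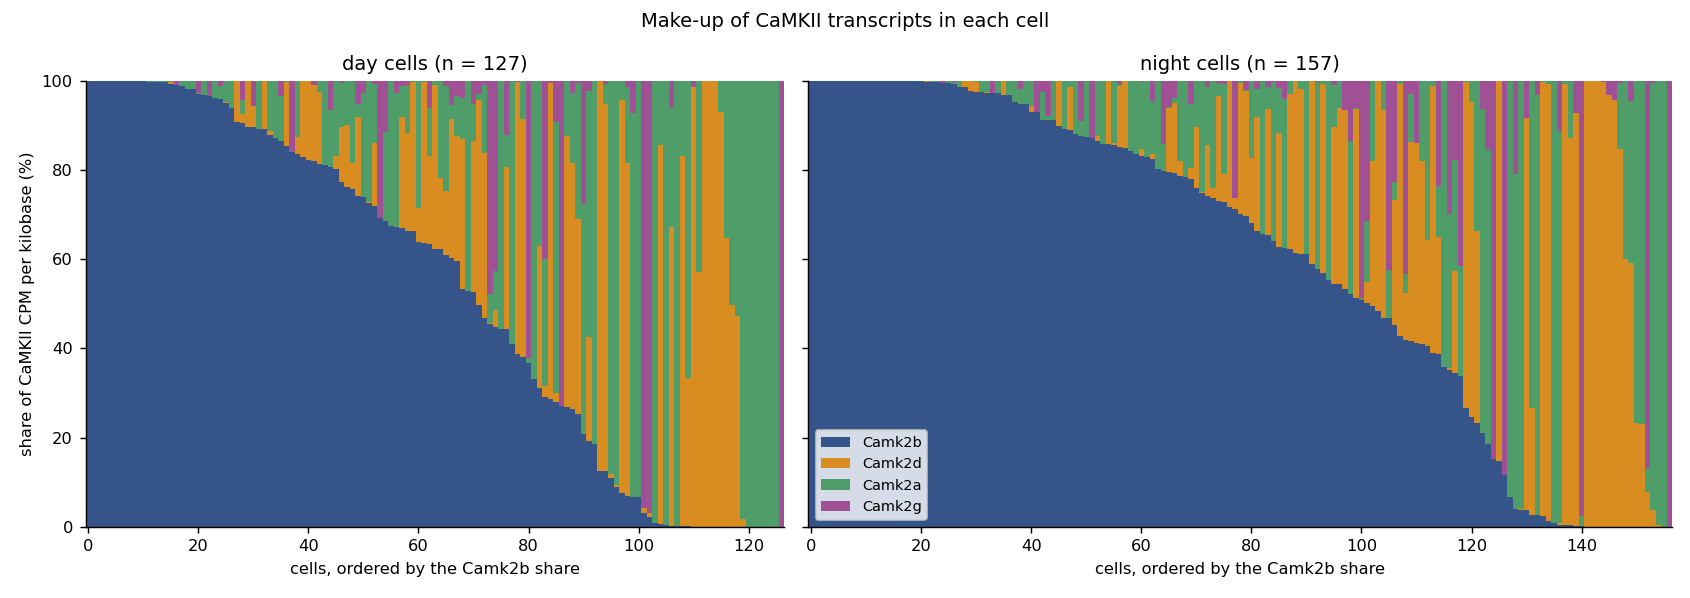
Share of each CaMKII gene in the CaMKII CPM per kilobase of every cell that has any of them (bars stacked to 100%, cells ordered by the Camk2b share), by day on the left and by night on the right, depolarized cells included. Camk2b fills most of the area in both panels, and cells made up almost wholly of Camk2d or Camk2a stand at the right ends.

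Camk4, the nuclear CREB kinase, was close to the limit of these data, at 6.64 CPM in day cells against 7.68 CPM in night cells, 6.96 CPM in active cells against 7.55 CPM in silent cells, and 7.75 CPM in cFOS+ cells against 6.74 CPM in cFOS- cells. After thinning, 10.1% of active cells (5.74 to 16.1%) against 23.8% of silent cells (16.04 to 33.1%) had a read of Camk4, and unthinned 11.5% against 23.7%. In cells with a read its median was 11.8 CPM in active cells and 4.50 CPM in silent cells, so the more frequent reads of silent cells were few per cell. By time, the share was 21.1% of day cells (14.0 to 29.7%) against 11.4% of night cells (6.68 to 17.9%), unthinned 23.6% against 10.9%, which goes against the pooled levels, and no order is read from it.

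**Figure D4:**
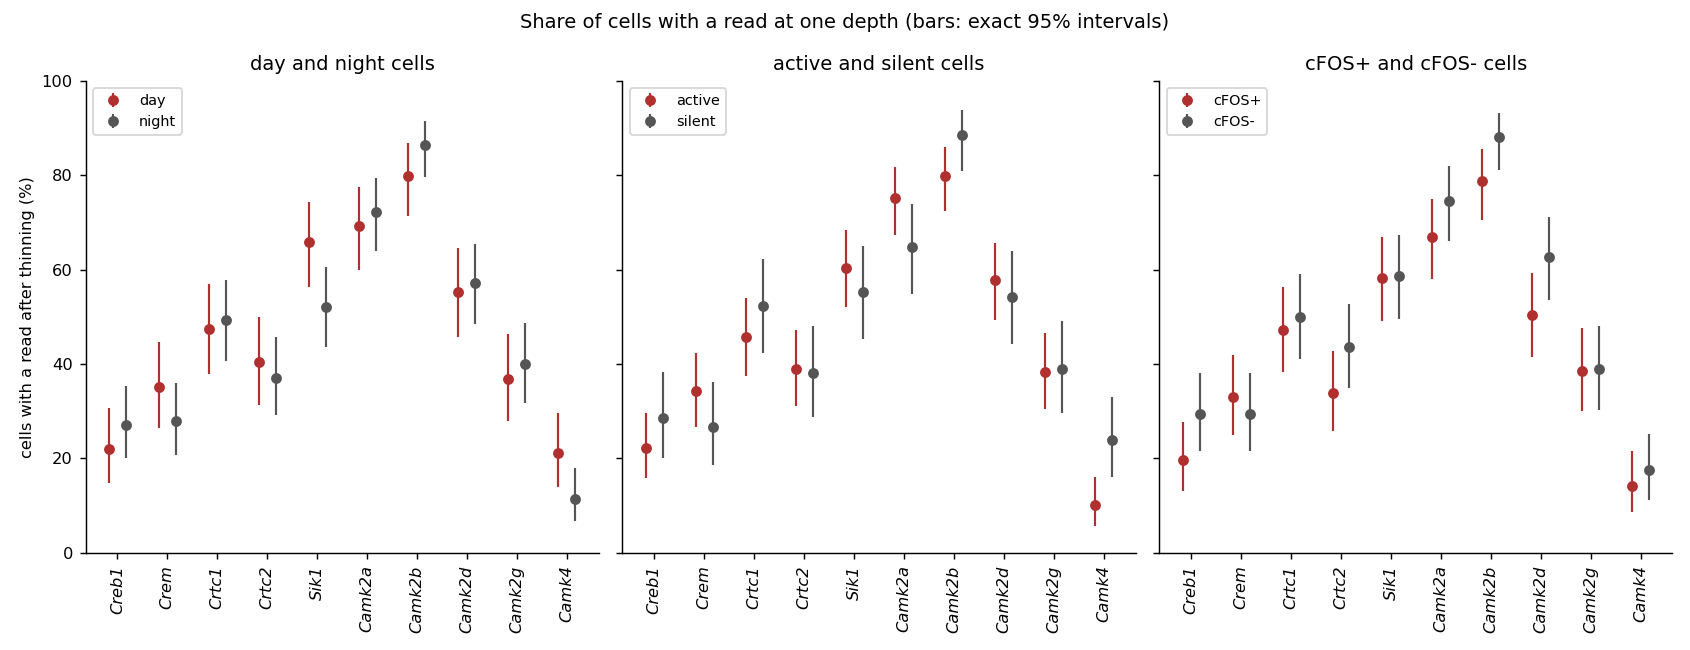
Share of cells with at least 1 read of each gene after thinning to 4210000 reads, with exact 95% intervals, in day (red) and night (grey), active (red) and silent (grey), and cFOS+ (red) and cFOS- (grey) cells. The intervals overlap for every gene in all 3 panels, and they come closest to separating for Camk4 in active against silent cells (10.1% and 23.8%).

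Counted together, 3 of the 10 genes were at least 1.5-fold higher in day than in night cells (Creb1, Crem and Sik1), where 14.6% of 11856 measured genes were. Creb1 also had the same sign in all 4 strata, as did 3.77% of the measured genes. None of the 10 was 1.5-fold lower by day, against 17.0% of the measured genes, or 5.43% with the same sign in all strata. In active over silent cells 2 of 10 were higher (Creb1 and Crem), against 15.9% of 11821 measured genes, and Creb1 was so with all strata positive, against 5.03%. None was lower, against 14.4%, or 3.60% with all strata. In cFOS+ over cFOS- cells none was 1.5-fold higher, against 12.5% of 11828 measured genes and 3.30% with all strata, and Creb1 alone was lower, with all strata negative, against 17.8% and 5.12%.

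In 10 genes the shares at 1.5-fold alone come to 1 or 2 genes, and those with the same sign in all strata to less than 1 gene. Counts of 0 to 3 of 10 and of 0 or 1 of 10 are too small to set the 10 genes apart from the background. The median log2 ratio of the 10 was 0.28 by time with 7 of 10 above 0, against -0.03 for all measured genes, and 0.20 by firing with 6 of 10 above 0, against 0.01. By cFOS label it was -0.45, with 2 of 10 above 0 (Crem and Camk4), against -0.04 for all measured genes. Of all measured genes, 47.8% were higher by day, 50.6% in active cells and 46.3% in cFOS+ cells. These shares are also the background for the lists below.

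For every one of the 10 genes, ordering the 8 groups of active and silent cells by pooled CPM gave 7 neighbouring pairs. In all 7 the ranges between the lower and upper quartile overlapped. For all of the genes but Camk2a and Camk2b the lower quartile was 0 in every group. Their ranges therefore had to overlap whatever the levels, and nothing is read from it. The lowest cell was at 0 in every group. Creb1 ran from 80.0 CPM in day active cFOS- cells to 3.81 CPM in night silent cFOS+ cells, and its 4 cFOS- groups held the 4 highest places.

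The CREB relatives and coactivators, 12 genes, had a median log2 ratio of 0.21 by time, with 7 higher by day. At least 1.5-fold higher were 4 of the 12, against 14.6% of the measured genes, and at least 1.5-fold lower 2 of the 12, against 17.0%. Creb3l1, a membrane-bound relative of CREB, had 70.9 CPM in day cells against 22.3 CPM in night cells. Crebrf, a regulator of the CREB3 family, had 161 CPM in day cells against 87.2 CPM in night cells. Crtc3, the third coactivator, was lower by day, at 17.7 CPM in day cells against 29.2 CPM in night cells. By firing, 9 of 12 were higher in active cells, with a median of 0.30, and Atf1, a close relative of CREB, had 50.9 CPM in active cells against 18.3 CPM in silent cells. By cFOS label 4 of 12 were higher in cFOS+ cells, with a median of -0.26.

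Protein kinase A, which phosphorylates CREB in response to cyclic AMP, and the other SIK genes formed a list of 12. By time 7 were higher by day, with a median of 0.08. None of the 12 was at least 1.5-fold higher, against 14.6% of the measured genes, and 2 were at least 1.5-fold lower, Pkia and Akap5, against 17.0%. Akap5, which encodes an anchoring protein of the kinase and is named here after its values were seen, had 1.24 CPM in day cells against 5.68 CPM in night cells. Pkia, which encodes a peptide that inhibits protein kinase A, had 82.5 CPM in day cells against 138 CPM in night cells, and 75.1 CPM in active cells against 165.8 CPM in silent cells. Pkib, another inhibitor, had 87.01 CPM in active cells against 159 CPM in silent cells. Both were lower in active cells in all 4 strata. Of 11 measured genes of this list, 2 were higher in active cells, with a median of -0.09, and 4 were higher in cFOS+ cells, with a median of -0.04.

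Calmodulin, the other CaM kinases and the CaMKII inhibitors, 12 genes, were split evenly, with 6 higher and 6 lower in each of the 3 comparisons. The medians were -0.01 by time, -0.09 by firing and 0.00 by cFOS label. Camk1g, a CaM kinase I gene, had 48.1 CPM in day cells against 82.3 CPM in night cells. Camk2n1, a CaMKII inhibitor, had 31.8 CPM in cFOS+ cells against 53.3 CPM in cFOS- cells. Camkk1, a kinase that activates CaMKIV, had 65.1 CPM in cFOS+ cells against 39.2 CPM in cFOS- cells. Of 9 calcineurin and phosphatase genes, 3 were higher by day, 1 in active cells and 4 in cFOS+ cells, with medians of -0.04, -0.19 and -0.21. Ppp3ca, the calcineurin catalytic subunit, had 134 CPM in cFOS+ cells against 184 CPM in cFOS- cells.

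Genes listed as CREB-responsive were mostly higher by day, in 16 of 18 measured genes, with a median of 0.50 against -0.03 for all measured genes. At least 1.5-fold higher were 7 of the 18, against 14.6% of all measured genes, and at least 1.5-fold lower was 1 of the 18 (Ppargc1a, named here after its values were seen), against 17.0%. The microglia markers (11 of 11 higher, median 1.72) and astrocyte markers (10 of 12 higher, median 1.37) were higher by day too, and their part in this was not tested. Junb, an AP-1 factor, had 699 CPM in day cells against 371.6 CPM in night cells. Per1, the clock gene, had 84.5 CPM in day cells against 52.7 CPM in night cells, and Pdyn, which encodes prodynorphin, 36.4 CPM in day cells against 15.05 CPM in night cells. By firing, 14 of 18 were higher in active cells, against 50.6% of all measured genes, with a median of 0.29 against 0.01. Sst, 1 of the genes with a full CRE shown above, had 520 CPM in active cells against 122.02 CPM in silent cells. Its log2 ratio ran from 0.72 to 8.56 over the 4 strata, and the part of single cells in it was not tested. Among the other genes with a full CRE, the log2 ratio by firing was 1.02 for Btg2 and 0.25 for Dusp1, and Dio2 was too low to count as measured. A link between these ratios and the CRE was not tested.

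The cFOS label gave another picture for these targets, with 6 of 18 higher in cFOS+ cells, against 46.3% of all measured genes. Their median was -0.35, against -0.04. At least 1.5-fold higher were 3 of the 18, against 12.5% of all measured genes, and at least 1.5-fold lower 4, against 17.8%. Pdyn had 33.9 CPM in cFOS+ cells against 15.5 CPM in cFOS- cells, and Vgf, a secreted neuropeptide precursor, 312.5 CPM in cFOS+ cells against 193 CPM in cFOS- cells. Nr4a1, an orphan nuclear receptor induced by activity, had 51.1 CPM in cFOS+ cells against 90.7 CPM in cFOS- cells, and Fos is given above. The list holds Fos, after which the cells were labelled, and 2 of its 20 genes, Dio2 and Ptgs2, were under 1 CPM in every group of these comparisons.

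**Figure D5:**
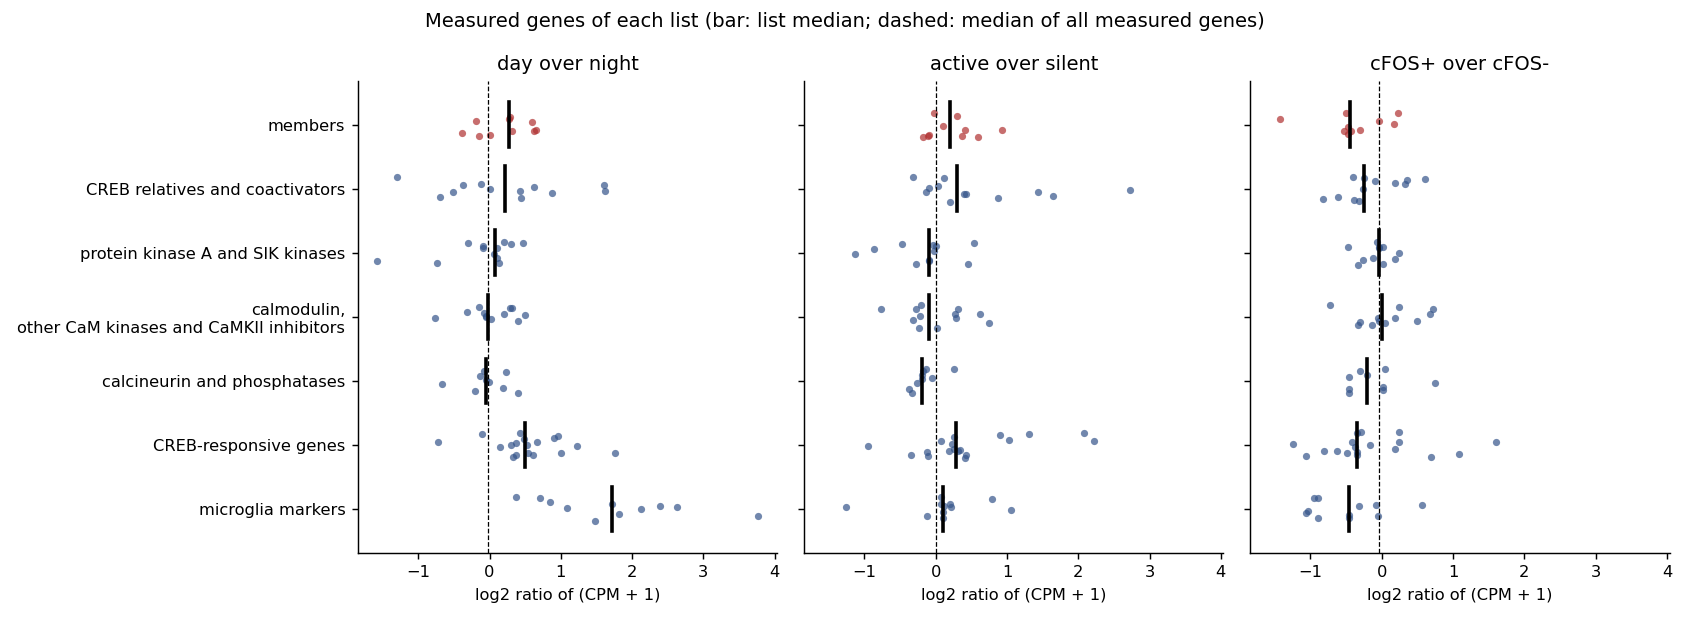
Log2 ratio of (CPM + 1) of every measured gene (points) of the 10 genes in red and of 6 other lists in blue, with list medians as bars and the median of all measured genes as a dashed line, in the 3 comparisons. CREB-responsive genes (median 0.50) and microglia markers (median 1.72) lie to the right by day, and the 10 genes (-0.45), CREB-responsive genes (-0.35) and microglia markers (-0.46) lie to the left for cFOS+ over cFOS-.

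Creb1 or Crem had a read in 147 of 297 cells (49.5%, 43.7 to 55.3%), and both in 27 cells (9.09%). A CREB gene together with a Crtc gene was read in 100 cells (33.7%, 28.3 to 39.4%), and in 61 cells (20.5%) Sik1 was read as well. With a CaMKII gene in place of Sik1 it was 98 cells. Over the 45 pairs of the 10 genes, Spearman correlations of log2 (CPM + 1) across the 297 cells ran from -0.11 to 0.21, with a median of 0.07. The highest was Camk2a with Camk2d. The cells of such a correlation share slices and depth, and the 10 genes themselves correlated with the number of detected genes at 0.06 (Crem) to 0.36 (Camk2a).

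Among 8270 genes that were read in 20% or more of the cells, the gene most like Camk2g was Lrfn5, a synaptic adhesion gene, with a Spearman correlation of 0.38 over 297 cells, followed by Ablim1 at 0.37. For Camk2a they were Unc5d and Zdbf2 (0.32 and 0.31), for Camk2b Atp2b2, a calcium pump, and Snrnp70 (0.31 each), and for Camk2d Nbea and Lcmt1 (0.30 and 0.29). For Sik1 they were Tuba1a and Rgs16 (0.29 and 0.28), and for Crtc1 Rragb and Rlim (0.30 and 0.28). For Crtc2 they were Foxo1 and Tmem131 (0.27 and 0.26), for Creb1 Grpel2 and Prpf18 (0.26 and 0.25), and for Crem DXBay18 and Gm14685 (0.24 and 0.23). Camk4 was under the 20% limit. All are weak correlations in sparse counts and are given as descriptions.

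SCN neurons differ in their peptides. There were 55 cells with at least 100 CPM of Vip, 95 with that level of Avp but not of Vip, and 147 with neither. The kinase genes Camk2d and Camk2g had their highest pooled levels in the cells with neither peptide. This also held for Camk2b, given below, and by little for Crtc1 and Camk2a. Camk2d had 88.1 CPM in Vip cells, 69.1 CPM in Avp cells and 176.6 CPM in cells with neither. After thinning, 25.5% of Vip cells (13.9 to 40.3%), 23.3% of Avp cells (15.1 to 33.4%) and 51.5% of cells with neither (42.6 to 60.4%) had a read of Camk2g. The unthinned shares were 23.6%, 25.3% and 53.1%. Cells with neither also had more detected genes, with a median of 4867 against 4411 in Vip and 4247 in Avp cells, and the part of this was not tested.

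Crem was read more often in Vip cells, in 48.9% (34.1 to 63.9%), against 30.0% of Avp cells (20.8 to 40.6%) and 25.4% of cells with neither (18.2 to 33.8%), with levels of 66.5, 59.8 and 46.7 CPM and unthinned shares of 47.3%, 31.6% and 25.2%. Of the 55 Vip cells 39 were active and 13 silent, against 45 active and 44 silent Avp cells. Creb1 had 10.04 CPM in Vip cells, 36.4 CPM in Avp cells, S190 among them, and 27.6 CPM in cells with neither. Camk4 had 12.7 CPM in Vip cells, 1.26 CPM in Avp cells and 9.56 CPM in cells with neither. Camk2b had 248.9 CPM in Vip, 312.2 CPM in Avp and 374.96 CPM in the cells with neither. These classes were cut from the counts of 2 peptide genes and are not types, and their differences were not tested.

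The depolarized cells are few. In the 7 day depolarized cFOS- cells, Camk2a had 158 CPM (153.7 to 161.5), with cells from 0 through a median of 117 to 536.5 CPM, against 109 CPM in the 27 day active cFOS- cells, with cells from 0 through a median of 30.5 to 588 CPM. Camk2b had 296 CPM in these depolarized cells against 283.4 CPM in the active ones, and Sik1 82.0 CPM against 61.4 CPM. Creb1 had 6.34 CPM in the depolarized cells, all from 1 cell, against 80.0 CPM in the active ones. Camk4 had no read in the 7 depolarized cells (upper bound of the 95% Poisson interval 0.092 CPM), against 4.44 CPM in the active ones. The ranges of the cells overlap for each of these genes, since both groups have cells at 0.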

How the data were processed

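Counts per gene for 22800 symbols were deposited by the authors as raw read counts. The authors also deposited a normalized signal, equal in every column to the counts divided by 1 factor per cell (relative tolerance 1e-06), which served as an alternative. A log table was not used. STAR, DESeq2 and the build GRCm38.p4 are listed in the submitters' processing notes. Versions, annotation, counting and strand: not given in the sources used here. No molecular identifiers are mentioned. Counts are therefore reads, and overlapping genes or paralogs may share them. All columns had a sample (0 unmapped), and no filter on cells was applied.

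Groups came from the labels. Cells are not replicates and no animal or slice is named, so no test was run. Summed counts of a group were scaled to CPM, and given exact Poisson 95% intervals. A ratio is the log2 ratio of (CPM + 1) in both groups. A gene counted as measured if either group had 5 CPM or more, and as called at 1.5-fold. Each comparison used active and silent cells, and the cFOS comparison left out the averaged pair. Shares of cells have exact Clopper-Pearson intervals after thinning to 4210000 reads, which left out 30 cells. Gene lengths are from GENCODE M21 of GRCm38, and promoters from RefSeq (GRCm38.p6). Promoters on chromosome 18 were left out for the 10 genes and the CREB-responsive list, but not for the shares of all promoters. All 10 genes are named. Of each list up to 4 genes were eligible, by 20 CPM or more in either group, the largest ratios and the same sign in all 4 strata, and some of these are given. The genes, lists, alternatives and comparisons were chosen with earlier results of these data known. Calculations used Python 3.11.15, numpy 2.4.6, pandas 2.3.3 and scipy 1.17.1, and the ratio step was tested on simulated data. Alternatives were the mean over cells, the deposited normalization, thinning, pseudocounts, filters, the fold limit, single cells, marker-bearing cells, cell numbers in the titles, the pair and equal weight of strata.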

Additional observations from a re-analysis of the deposited data

Results flagged for a closer look

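The 7 day depolarized cFOS- cells were the only group of 4 to 10 cells, and a single cell far above the others was found there for 5 of the 10 genes. Creb1 was at 44.1 CPM in cell S387 and at 0 in the other 6. Crem was at 125 CPM in S412, with the next cell at 7.25 CPM. Crtc1 was at 14.6 CPM and Camk2g at 16.3 CPM, both in S381, and each was at 0 in the other cells. Crtc2 was at 554 CPM in S400, with the next cell at 136.5 CPM. By its nominal rate for normally distributed values, chance flags about 1 in 20 groups. That rate was not measured here, and most of the 7 cells were at 0 for Creb1, Crtc1 and Camk2g.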

How the results depend on the processing

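No paired analysis was possible because the cell numbers in the titles name single cells (only S253 and S253-2 share a number) and no difference was tested. Day over night, 3 of the 10 genes were at least 1.5-fold higher. That count was 1 with the mean over cells, without the top cell of each group, after thinning, with mean log2 values or with equal weight of strata, and 0 with pseudocount 10, with 2-fold as the limit or without the cell whose loss brings each ratio nearest 0, an alternative chosen after seeing the data. The count of lower genes, 0, became 1 with mean log2 values (Camk2b), and 1 among lower (Crtc2) and among higher (Camk4) cell numbers. The Creb1 ratio was -0.47 among higher cell numbers; the cause was not tested.

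Active over silent, 2 genes were higher. That count was 1 (Crem) with the mean over cells, without top cells, after thinning, with the authors' normalized values, mean log2 values, pseudocount 10, the pair as 2 cells or without the cell nearest to deciding each ratio, and 0 at 2-fold. The lower count, 0, was 1 with mean log2 values (Camk2b), without microglia-marker cells and among higher cell numbers (Camk4 in both).

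cFOS+ over cFOS-, the higher count, 0, was 1 after thinning (Camk4), 2 among higher cell numbers (Crem, Crtc1) and 1 without the cells with fewest genes (Crem). The lower count, 1, was 2 with the mean over cells, thinning, normalized values or equal strata (Creb1, Crtc2) and with mean log2 values (Crtc1, Camk2d), 4 without microglia-marker cells, and 3 among lower numbers, among higher numbers and without the cells with fewest genes. Over all alternatives the Creb1 ratio by cFOS label ran from -2.21 to -0.54 and passed 1.5-fold in 16 of 17, and the Crem ratio by firing ran from 0.61 to 1.17, past 1.5-fold in 16 of 16. Sik1 by time ran from 0.45 to 1.18, past it in 10 of 17, and Camk2b by time from -0.77 to -0.18, past it in 1 of 16. Of 106 recomputed counts, 71 were within 1.5 times the main one.

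Cells were deeply sequenced, but reads of Creb1, Crem and Camk4 were found in few cells. No label names the animal or slice, so a difference between times cannot be told apart from one between animals or slices.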
